A study of Rattus norvegicus with 10 samples.

Results

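A set of 10 genes of the ATF4 response and of serine and asparagine synthesis was followed in nasal epithelium of rats given N,N-dimethyl-p-toluidine (DMPT): Atf4, Ddit3, Trib3, Nupr1, Sesn2, Asns, Phgdh, Psat1, Psph and Shmt2. They were taken as all probe sets whose only annotated gene symbol is 1 of these 10, which gave 13 probe sets of 31042 and 10 genes of 14217. Trib3 had 3 probe sets, Sesn2 had 2, and each other gene had 1. The DMPT group held 5 male rats of the F344/N strain, aged 5 to 6 weeks when dosing began, that received 120 mg/kg/day of DMPT in corn oil by gavage on 5 consecutive days. The vehicle group held 5 male F344/N rats of the same age that received corn oil alone (0 mg/kg/day) for the same time. DMPT is an aromatic amine that starts the hardening of acrylic cements. Transitional epithelium of the nasal cavity was cut out by laser capture microdissection, its RNA amplified, and each of the 10 animals measured on its own array.

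ATF4 is the transcription factor through which cells answer amino acid shortage, stress of the endoplasmic reticulum, heme deficiency and oxidative stress. Kinases that sense these conditions phosphorylate the translation factor eIF2, which lowers protein synthesis as a whole while translation of the Atf4 mRNA goes up. The ATF4 protein then switches on genes for amino acid import and synthesis, for tRNA charging and for its own feedback, so its activity is controlled in large part at the level of translation and does not have to show in its mRNA. Serine is made from a glycolytic intermediate by PHGDH, PSAT1 and PSPH in that order, SHMT2 turns it into glycine in mitochondria, and ASNS makes asparagine from aspartate and glutamine.

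ATF4 and its C/EBP partners bind a composite element in the promoters of many targets, and its core letters TGATGNAA were searched on both strands in the 250 bases before the RefSeq start of each gene. All 10 members had a promoter sequence there. The letters occurred in 2 of the 10, in Nupr1 from 55 to 48 bases before the start and in Trib3 from 21 to 14 bases before it, both on the strand opposite to the gene. They occurred in 3.4% of 33469 promoters of the same length. The 200 bases before the start are given for these 2 genes and for Asns and Phgdh, because Nupr1 and Asns were the members that fell and Phgdh the member that rose. Sequences are from RefSeq, build GRCr8, written 5′ to 3′ on the strand of the gene, with capitals marking the element.
Nupr1, GRCr8 chr1:190645902-190646101, minus strand: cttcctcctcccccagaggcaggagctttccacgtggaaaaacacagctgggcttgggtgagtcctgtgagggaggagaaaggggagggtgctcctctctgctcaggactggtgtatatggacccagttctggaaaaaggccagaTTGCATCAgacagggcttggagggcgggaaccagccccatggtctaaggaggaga
Trib3, GRCr8 chr3:161275534-161275733, minus strand: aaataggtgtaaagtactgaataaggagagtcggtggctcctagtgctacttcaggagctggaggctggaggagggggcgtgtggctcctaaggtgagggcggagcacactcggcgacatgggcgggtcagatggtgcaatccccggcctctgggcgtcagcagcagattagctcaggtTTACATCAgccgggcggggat
Asns, GRCr8 chr4:36769416-36769615, minus strand: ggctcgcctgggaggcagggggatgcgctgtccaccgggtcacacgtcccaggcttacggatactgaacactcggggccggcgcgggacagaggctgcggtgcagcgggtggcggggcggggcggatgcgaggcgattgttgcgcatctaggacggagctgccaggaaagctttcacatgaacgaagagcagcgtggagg
Phgdh, GRCr8 chr2:188624790-188624989, minus strand: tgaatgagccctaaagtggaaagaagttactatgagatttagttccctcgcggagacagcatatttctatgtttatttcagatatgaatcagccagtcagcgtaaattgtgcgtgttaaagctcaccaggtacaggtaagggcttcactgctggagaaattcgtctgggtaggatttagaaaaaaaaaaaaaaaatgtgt
A match describes the letters and not a bound site, and for Asns and Phgdh the search says only that these letters are not in this window. The core of the antioxidant response element bound by NRF2, TGACNNNGC, was found in the 250 bases of Sesn2 and of no other member, against 10.1% of all promoters. No member held both elements.

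Values are log2 expression per probe set after RMA, a standard method that corrects background, levels the arrays and summarises the probes. Array medians lay between 8.21 and 8.35 and lower quartiles between 6.38 and 6.51. Differences are log2 DMPT minus vehicle from limma, with standard errors after ±, and a gene was called at an adjusted p under 0.05 over all probe sets. Of 14217 genes, 7.13% were called higher and 6.77% lower, 13.9% together. Vehicle replicate 2 had the highest median, and without it 1307 genes were called higher and 963 lower, against 1013 and 962 with all arrays. Of 11 epithelial markers, all were brighter than the median probe set, and their mean was 13.0 to 13.1 in the DMPT arrays and 12.7 to 12.9 in the vehicle arrays. Krt5, Krt7 and Krt8 made up the 3 of them called higher, with 0 lower. Markers of olfactory neurons and muscle were mostly dim, with 8 of 10 and 8 of 9 below that median. Of the olfactory markers 1 was called higher and 2 lower, Reep1 (fell by 1.10 ± 0.11) and Gap43 (fell by 0.79 ± 0.18), and of the muscle markers 0 were called. Endothelial markers were dim as well (8 of 9 below that median) and had a mean of 7.52 to 8.76 in the DMPT arrays and 6.40 to 7.60 in the vehicle arrays, with 6 of 9 called higher, while 0 of 11 stromal markers were called. Of 15 leukocyte markers, 4 were higher and 1 lower. In tissue of mixed cells, fewer cells of a type and less RNA per cell cannot be told apart.

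The 10 genes did not move as a block. Nupr1 and Asns fell, Phgdh rose, and Atf4 and Ddit3, the transcription factors, did not pass the test. In all, 1 member was called higher and 2 lower, against 7.13% and 6.77% of all genes, and the median difference of the 10 was 0.21, against -0.0052 over all genes. The groups did not overlap for 4 members, Nupr1, Asns, Phgdh and Psat1, 2 of them higher and 2 lower, which compares with 7.58% of all genes without overlap and higher and 6.29% without overlap and lower. At an unadjusted p under 0.05, 4 members were higher and 2 lower, against 13.7% and 14.5% of all genes. The count of higher members was 2 without vehicle replicate 2.

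**Figure D1:**
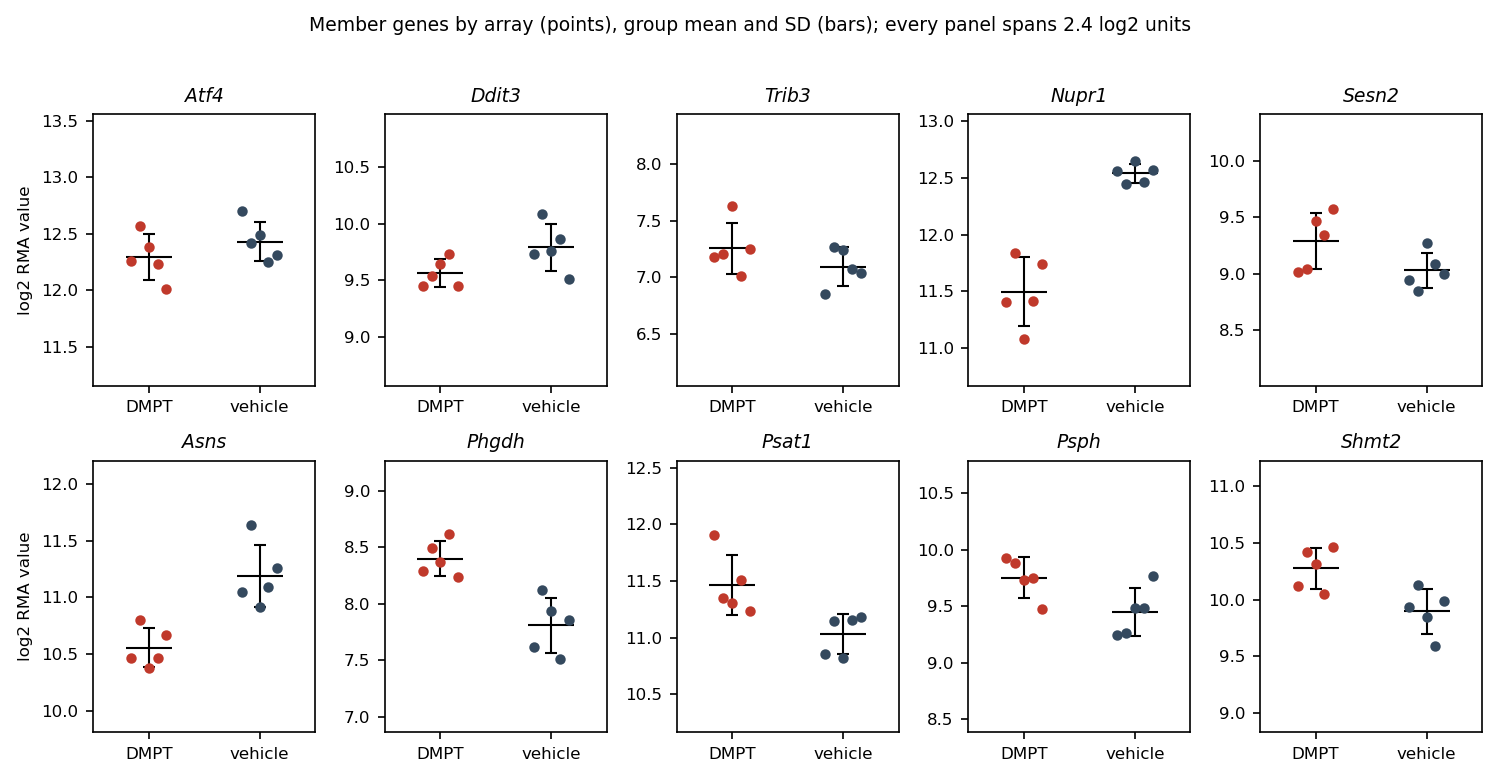
Log2 RMA value of each member in the 5 DMPT and 5 vehicle arrays (points), with group mean and SD (bars), for the probe set with the highest mean of each gene; every panel spans the same number of log2 units. Nupr1 and Asns lie lower in all 5 DMPT arrays than in any vehicle array, and Phgdh and Psat1 lie higher, while the points of Atf4, Ddit3, Trib3, Sesn2, Psph and Shmt2 overlap.

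The transcription factors did not differ beyond the spread between animals. Atf4 (1367624_at), which encodes ATF4 itself, had values of 12.26, 12.57, 12.38, 12.23 and 12.02 in the DMPT arrays, against 12.70, 12.42, 12.49, 12.25 and 12.31 in the vehicle arrays. The highest and the lowest of the 10 values were vehicle replicate 1 and DMPT replicate 5, and the groups overlapped over most of their range. Its difference was -0.14 ± 0.12, with a 95% interval of -0.40 to 0.12 (adjusted p = 0.539). With the 3′ to 5′ RNA ratio given with Asns as a covariate, the difference of Atf4 was 0.0076 (adjusted p = 0.987). Ddit3 (1369590_a_at) encodes CHOP, a partner of ATF4 that favours cell death under lasting stress. Its values were 9.45, 9.54, 9.65, 9.74 and 9.45 in the DMPT arrays, against 9.73, 10.08, 9.76, 9.87 and 9.51 in the vehicle arrays. Vehicle replicate 2 was the highest, and vehicle replicates 1 and 5 lay among the DMPT values. The difference was -0.23 ± 0.11 (95% interval -0.47 to 0.02, adjusted p = 0.251), and it was not called under any of the 18 alternatives.

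Among Nupr1, Trib3 and Sesn2, further genes of the ATF4 response, Nupr1 fell and the others did not pass. Nupr1 (1367847_at) encodes a small stress-induced chromatin protein that acts with ATF4 and CHOP in some cells. Its values were 11.40, 11.84, 11.08, 11.42 and 11.74 in the DMPT arrays, against 12.56, 12.45, 12.65, 12.47 and 12.57 in the vehicle arrays. Every DMPT array lay below every vehicle array, and the vehicle arrays were close together, spanning 0.20 log2 units against 0.76 among the DMPT arrays. Nupr1 fell by 1.05 ± 0.14 or 2.07-fold (adjusted p = 0.000645), with a 95% interval of -1.34 to -0.75, and was called under all 18 alternatives, with values from -1.13 to -0.94. Some markers of other cell types were lower as well. Of 6 ciliated cell markers measured, 4 were called lower and 0 higher, beside 6.77% and 7.13% of all genes. The groups overlapped for all 6, unlike for Nupr1 and Asns, and the 4 called had adjusted p from 0.0347 to 0.0440. The mean level of the 6 was 10.1 to 11.9 in the DMPT arrays and 11.5 to 12.6 in the vehicle arrays. Of 9 nasal gland markers, 3 were called lower and 0 higher, beside the same shares. Their mean level was 9.35 to 10.4 in the DMPT arrays and 9.81 to 10.9 in the vehicle arrays. Azgp1, a secreted glycoprotein gene, fell by 2.36 ± 0.19 (adjusted p = 3.35e-05). The part of these cells in the results was not tested.

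Trib3 encodes a pseudokinase that binds ATF4 and CHOP and damps their action. Its 3 probe sets differed by 0.16 ± 0.13, 0.21 ± 0.20 and 0.56 ± 0.21 (1370695_s_at, 1370694_at and 1386321_s_at), and none was called (adjusted p = 0.491, 0.583 and 0.121; 1 of the 3 had an unadjusted p under 0.05). The last of them had 6.54, 6.51, 7.69, 7.27 and 6.83 in the DMPT arrays, against 6.16, 6.60, 6.27, 6.52 and 6.49 in the vehicle arrays. DMPT replicates 3, 4 and 5 stood above every vehicle array, and DMPT replicates 1 and 2 lay among them. Probe sets with the ending s can also bind related transcripts, so their reading is less certain. All 3 Trib3 probe sets were dim as well, with mean levels at percentiles 34.9, 31.3 and 28.2 of all probe sets. A change in Trib3 could therefore be understated. Sesn2 encodes sestrin 2, a leucine sensor that restrains the growth kinase mTORC1. Its probe sets differed in opposite directions without passing, by 0.26 ± 0.13 for 1391607_at (adjusted p = 0.249) and -0.21 ± 0.16 for 1396901_at (adjusted p = 0.466). The values of the first ran from 9.02 to 9.57 in the DMPT arrays and 8.85 to 9.27 in the vehicle arrays, and those of the second from 6.53 to 7.13 in the DMPT arrays and 6.67 to 7.30 in the vehicle arrays.

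Asns (1387925_at), the gene of asparagine synthetase and a standard target of ATF4, fell. Its values were 10.46, 10.80, 10.38, 10.47 and 10.67 in the DMPT arrays, against 11.05, 11.64, 10.92, 11.09 and 11.26 in the vehicle arrays. No DMPT array reached the lowest vehicle array, and vehicle replicate 2 was the highest of all. Means were 10.56 ± 0.17 with DMPT and 11.19 ± 0.28 with vehicle (SD, n = 5 each). The fall was 0.63 ± 0.14 log2 units or 1.55-fold (adjusted p = 0.0140), and 0.52 log2 units without vehicle replicate 2 (adjusted p = 0.0110). RNA quality was read from control probe sets for Gapdh and Actb, as the log2 value at the 3′ end less that at the 5′ end. A larger value can mean less intact RNA, but the RNA was amplified, and this ratio does not separate the 2. It averaged 1.10 ± 0.19 with DMPT and 1.28 ± 0.13 with vehicle (SD, n = 5 each; two-sided exact permutation p = 0.143, where the smallest possible is 0.00794). With that ratio as a covariate Asns differed by -0.54 and lost its call (adjusted p = 0.0731), and its part in the result was not tested further.

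The enzymes of serine synthesis lay on the other side of 0. Phgdh (1367811_at) encodes the enzyme of the first and committed step. Its values were 8.29, 8.49, 8.37, 8.62 and 8.24 in the DMPT arrays, against 7.61, 8.12, 7.94, 7.51 and 7.86 in the vehicle arrays. The lowest DMPT array stood above the highest vehicle array, which was vehicle replicate 2. Phgdh averaged 8.40 ± 0.15 with DMPT and 7.81 ± 0.25 with vehicle (SD, n = 5 each) and rose by 0.59 ± 0.13 or 1.51-fold (adjusted p = 0.0127). It was called under all 18 alternatives, with values from 0.52 to 0.72.

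Psat1 (1372665_at), the aminotransferase of the second step, had values of 11.90, 11.35, 11.31, 11.51 and 11.24 in the DMPT arrays, against 10.85, 11.15, 10.82, 11.16 and 11.18 in the vehicle arrays. DMPT replicate 1 was the highest, and the 2 groups did not overlap, although DMPT replicate 5 and vehicle replicate 5 were close. Its difference of 0.43 ± 0.14 (95% interval 0.13 to 0.73) did not pass (adjusted p = 0.0687). It was called under 4 of 18 alternatives, and without DMPT replicate 1 it was 0.32 (adjusted p = 0.117). Psph (1375964_at), the phosphatase of the last step, had values of 9.93, 9.88, 9.73, 9.75 and 9.47 in the DMPT arrays, against 9.24, 9.26, 9.49, 9.49 and 9.77 in the vehicle arrays. Vehicle replicate 5 lay among the DMPT arrays and DMPT replicate 5 among the vehicle arrays, and the difference was 0.30 ± 0.12 (adjusted p = 0.149). Shmt2 (1388695_at), the mitochondrial hydroxymethyltransferase, had values of 10.12, 10.42, 10.32, 10.05 and 10.46 in the DMPT arrays, against 9.94, 10.12, 9.85, 9.59 and 9.98 in the vehicle arrays. DMPT replicates 1 and 4 lay below vehicle replicate 2 and above the other vehicle arrays. Shmt2 differed by 0.38 ± 0.12 (95% interval 0.11 to 0.64, adjusted p = 0.0691), and by 0.43 without vehicle replicate 2 (adjusted p = 0.0352).

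All 4 of these enzyme genes had positive differences, from 0.30 to 0.59, but the call rests on Phgdh alone. Markers of dividing cells were higher in the same arrays. Of 12 measured, 11 were called higher and 0 lower, with a median difference of 1.13 and a mean level of 10.0 to 10.2 in the DMPT arrays and 8.67 to 9.58 in the vehicle arrays. Aurkb, at -0.72 ± 0.24, was the marker that was not called. Within groups, deviations from the group mean were compared with those of the mean of these markers over the 10 arrays. Pearson's r was 0.67 for Phgdh, 0.56 for Shmt2, 0.17 for Psat1 and -0.21 for Psph. Over all members r ran from -0.52 for Sesn2 to 0.67 for Phgdh, and it was 0.55 for Asns, which fell. The same r with the 3′ to 5′ RNA ratio was 0.56 for Phgdh, 0.38 for Shmt2, -0.21 for Psat1 and -0.089 for Psph. Dividing cells use serine and glycine for nucleotides, and the part of these cells in the enzyme values was not tested.

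**Figure D2:**
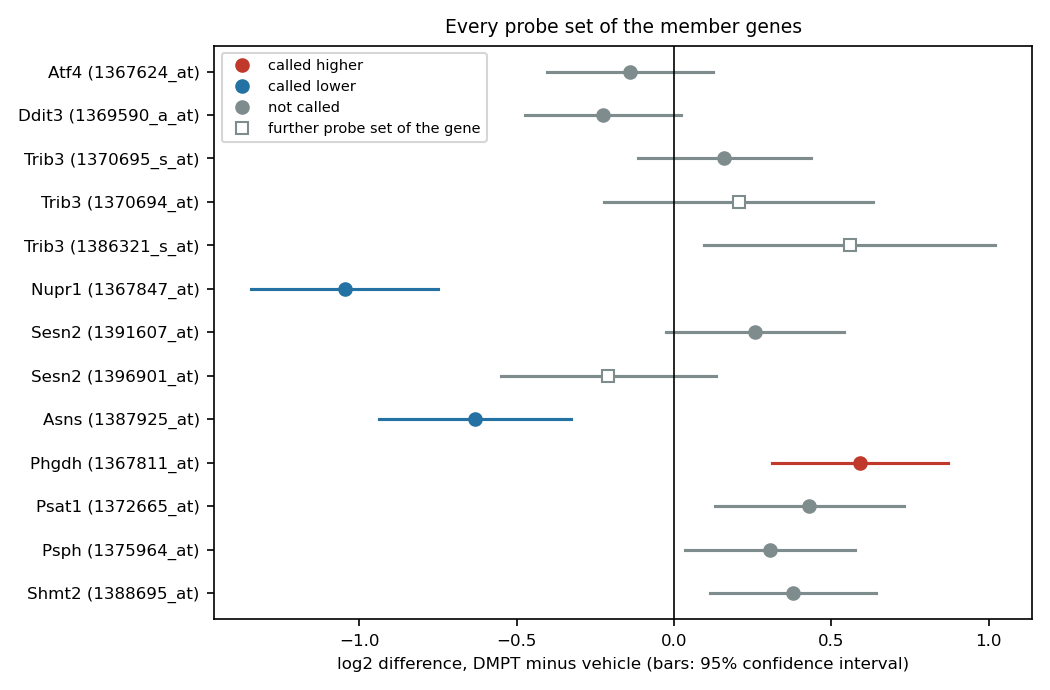
Log2 difference, DMPT minus vehicle, with its 95% confidence interval for each of the 13 probe sets (circles for the probe set with the highest mean of its gene, open squares for further probe sets; red called higher, blue called lower, grey not called). Nupr1 and Asns lie left of 0 and Phgdh right of it, the 2 probe sets of Sesn2 lie on opposite sides, and the intervals of Psat1, Psph, Shmt2 and the third probe set of Trib3 lie right of 0 without passing the adjusted threshold.

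Other genes known as ATF4 targets in rodent or human cells gave a second view, from a list of 31 of which 30 were measured. Of these, 7 were called higher and 0 lower (12 and 0 at an unadjusted p under 0.05), beside 7.13% and 6.77% of all genes (13.7% and 14.5% unadjusted), and the median of the list was 0.24. The list was chosen with earlier results of these data known, so these counts are a description and not independent support. The largest rise was that of Slc7a11, the cystine importer, at 4.12 ± 0.19 or 17.4-fold (adjusted p = 7.76e-07). Its values were 13.52, 13.25, 13.36, 13.00 and 12.75 in the DMPT arrays, against 9.46, 9.25, 8.45, 9.04 and 9.05 in the vehicle arrays. Every DMPT array lay far above every vehicle array. Gdf15, a secreted stress cytokine, rose by 1.78 ± 0.20 (adjusted p = 0.000241), with 10.01, 10.64, 10.38, 10.30 and 9.43 in the DMPT arrays, against 8.05, 8.38, 8.56, 8.42 and 8.45 in the vehicle arrays. Slc6a9, a glycine transporter, rose by 1.31 ± 0.14 (adjusted p = 0.000221), and its 2 further probe sets were called higher as well, at 1.37 and 1.52. Slc1a5, a glutamine and neutral amino acid exchanger, rose by 1.30 ± 0.12 (adjusted p = 6.78e-05).

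The other called genes of this list were Ddit4, an inhibitor of mTORC1, at 0.73 ± 0.14, Slc3a2, the heavy chain that partners Slc7a11, at 0.54 ± 0.11, and the neutral amino acid transporter Slc1a4 at 0.69 ± 0.14. Amino acid transporters made up 5 of the 7, out of 9 measured in the list, a grouping made after the values were seen. Of the 21 remaining genes, Gdf15 and Ddit4 were called. Slc7a11, Slc3a2 and Gdf15 are also known to respond to other stress regulators, among them NRF2 for Slc7a11. The established ATF4 targets Chac1 (-0.11 ± 0.16), Atf3 (0.40 ± 0.29), Stc2 (0.05 ± 0.10) and Mthfd2 (0.20 ± 0.14) were not called, with adjusted p between 0.430 and 0.796. They were dim, with mean levels at percentiles 36.7, 37.1, 22.1 and 38.9 of all probe sets. A change in these genes could therefore be understated. Other targets that were not called were bright, among them Slc38a2 (0.13 ± 0.12), Cebpg (0.16 ± 0.10) and Atf5 (-0.18 ± 0.24). Their mean levels were at percentiles 94.1, 89.8 and 86.7. Of the 30 genes measured, 10 were below the median level and 5 below the lower quartile. Without vehicle replicate 2, 9 genes of the list were called higher and 1 lower. The core letters TGATGNAA were in 6 of the 21 promoters of the list that were at hand, against 3.4% of all promoters. Chac1 and Slc1a4 were among them, and Slc1a4 was the only called gene there. The NRF2 core TGACNNNGC was also in 6 of the 21, against 10.1% of all promoters. Those included the called genes Gdf15 and Slc3a2. In other lists given below, 2 genes called lower also held a match, Herpud1 for TGATGNAA and Ppp1r15a for TGACNNNGC.

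Aminoacyl-tRNA synthetases load amino acids on tRNAs, and ATF4 drives many of them. Of 19 measured, 2 were called higher and 0 lower, beside 7.13% and 6.77% of all genes. At an unadjusted p under 0.05, 6 were higher and 0 lower, beside 13.7% and 14.5% of all genes. The median was 0.17, with 17 of 19 differences above 0. Gars1, the glycyl enzyme, had 11.09, 11.16, 11.23, 11.14 and 11.07 in the DMPT arrays, against 10.59, 10.72, 10.66, 10.56 and 10.58 in the vehicle arrays. The groups did not overlap. It rose by 0.52 ± 0.08 (adjusted p = 0.00154), and its second probe set rose by 0.56 ± 0.13. Wars1, the tryptophanyl enzyme, rose by 0.55 ± 0.16 (adjusted p = 0.0443), but its second probe set, at 0.32, was not called, and Wars1 lost its call under 11 of 18 alternatives. Kars1 differed by 0.26 ± 0.09 (adjusted p = 0.0949), and a dim second probe set by -0.81 ± 0.36. Nars1, which charges asparagine, differed by 0.45 ± 0.21 and Sars1, which charges serine, by 0.03 ± 0.12; neither was called. Leaving out vehicle replicate 2 gave 5 called higher, leaving out vehicle replicate 5 gave 3, and any other single omission gave 1.

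Genes around eIF2 were called about as often as all genes. Of 14 genes of the eIF2 kinases and of eIF2 control, 1 was called higher and 1 lower, beside 7.13% and 6.77% of all genes, and the median was 0.06. The kinase genes Eif2ak1, Eif2ak2, Eif2ak3 and Eif2ak4, for the sensors of heme, double-stranded RNA, endoplasmic reticulum stress and uncharged tRNA, differed by 0.0015, -0.11, 0.0845 and -0.25, and none was called. Eif2b3, a subunit of the exchange factor that recharges eIF2, rose by 0.57 ± 0.12 (adjusted p = 0.0119). Ppp1r15a, which encodes GADD34, the ATF4-induced subunit of the phosphatase that resets eIF2, had 9.02, 9.21, 8.94, 8.71 and 9.27 in the DMPT arrays, against 9.38, 9.99, 9.70, 9.49 and 9.24 in the vehicle arrays. It fell by 0.53 ± 0.15 (adjusted p = 0.0458). Its call was lost under 11 of 18 alternatives, among them the omission of any single array other than DMPT replicate 5 and vehicle replicate 5, with values from -0.61 to -0.42 over all omissions.

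Folate enzymes carry on the carbon unit that SHMT2 releases from serine. Of 17 measured, with those of glycine cleavage, 3 were called higher and 0 lower, beside 7.13% and 6.77% of all genes, and the median was 0.12. Mthfd1l, the mitochondrial formate-producing enzyme, rose by 1.40 ± 0.18 (adjusted p = 0.000614). Its values were 7.31, 7.03, 7.48, 6.64 and 7.18 in the DMPT arrays, against 5.82, 6.01, 5.92, 5.64 and 5.21 in the vehicle arrays. All vehicle values lay below the lower quartiles of the arrays, so the size of this rise is uncertain. Aldh1l1, the cytosolic formyl-folate dehydrogenase, rose by 0.55 ± 0.12 (adjusted p = 0.0156) and Tyms, the thymidylate synthase of dividing cells, by 0.73 ± 0.17 (adjusted p = 0.0189). Mthfd2, at 0.20 ± 0.14, and Shmt1, the cytosolic counterpart of Shmt2, at -0.055 ± 0.11, were not called. With the 3′ to 5′ ratio as a covariate 1 of the 17 was called, as Aldh1l1 and Tyms then had adjusted p of 0.0693 and 0.0523.

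Among 17 other enzymes of the amino acids next to serine and asparagine, 1 was called lower and 0 higher, beside 6.77% and 7.13% of all genes. At an unadjusted p under 0.05, 5 were lower and 3 higher, against 14.5% and 13.7% of all genes. The list had a median of -0.047. Prodh, the proline dehydrogenase that breaks proline down, had 8.98, 9.29, 8.95, 9.27 and 9.07 in the DMPT arrays, against 10.22, 11.04, 10.17, 10.05 and 10.24 in the vehicle arrays. The groups did not overlap, and Prodh fell by 1.23 ± 0.17 or 2.34-fold (adjusted p = 0.00107); its second probe set fell by 0.90 ± 0.14. Asrgl1, an asparaginase, differed by -1.01 ± 0.38 (adjusted p = 0.120), with 7.22 to 7.70 in the DMPT arrays and 7.85 to 10.20 in the vehicle arrays. Its 3 probe sets were all negative and none was called. Sdsl, of the serine dehydratase family, differed by -0.33 ± 0.12 (adjusted p = 0.0999).

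Targets of ATF6 and XBP1, the other arms of the endoplasmic reticulum stress response, were called in both directions. Of 16 measured, 3 were higher and 1 lower, when all genes gave 7.13% and 6.77%, and the median was 0.13. The co-chaperone gene Dnajb9 rose by 0.47 ± 0.09 (adjusted p = 0.00709), Sel1l, of the degradation machinery, by 0.45 ± 0.10 (adjusted p = 0.0140) and the secreted factor gene Manf by 0.40 ± 0.10 (adjusted p = 0.0309). Herpud1, a degradation adaptor that ATF4 also induces, fell by 0.38 ± 0.10 (adjusted p = 0.0251), and lost the call under 7 of 18 alternatives, namely when DMPT replicate 1, 3, 4 or 5 or vehicle replicate 4 or 5 was left out and with the 3′ to 5′ ratio as a covariate. The main chaperone Hspa5 (BiP) differed by 0.0982 ± 0.0933 and Xbp1 by -0.10 ± 0.0956. Leaving out vehicle replicate 2 gave 5 called higher, leaving out vehicle replicate 5 gave 4, leaving out DMPT replicate 5 gave 3, and any other single omission gave 2.

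Relatives of the members were not called by limma. Of 9 measured, 0 were higher or lower, and 1 was higher and 0 lower at an unadjusted p under 0.05, beside 13.7% and 14.5% of all genes. Cebpb, a binding partner of ATF4, differed by 0.33 ± 0.15 (adjusted p = 0.180), Cebpg by 0.16 ± 0.10 and Sesn1, the p53-regulated sestrin, by -0.24 ± 0.19; a second probe set of Sesn1 differed by 0.11. Without vehicle replicate 2, 1 of the 9 was called lower.

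**Figure D3:**
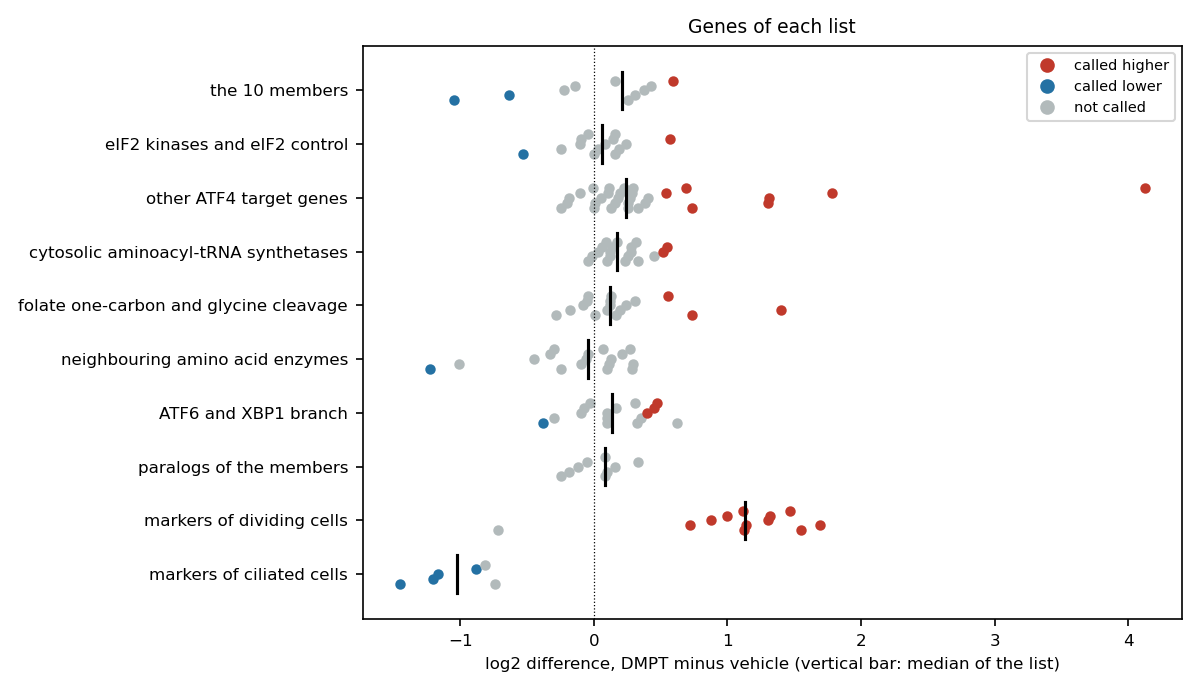
Log2 difference, DMPT minus vehicle, of every measured gene of the 10 members, of 7 lists around them and of the dividing and ciliated cell markers (points; red called higher, blue called lower, grey not called), with the median of each list as a vertical bar. The members spread over both sides of 0, Slc7a11 lies far to the right among the other ATF4 targets, and the dividing cell markers lie right of 0 except Aurkb.

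Over the 10 arrays, the genes with values most like those of Nupr1, the called member with the smallest p, were Fgf1, Slc27a2, Zfp386, Cyfip2 and Aox4, with Pearson's r from 0.981 to 0.990. All 5 fell, from Slc27a2 with a difference of -0.44 to Aox4 with -1.82, so the difference between the groups is itself part of that likeness. The deviations from the group means of these genes and Nupr1 had r from 0.840 to 0.923. The genes most like Atf4 were Dpm1, Rnf113a1, Dph2, Nhlrc2 and Pax1, with r from 0.890 to 0.955, and none of these 5 was called. No member was among either 5, since members were left out of the search. These correlations describe 10 arrays and were picked as the highest of all genes, so they carry no p.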

How the data were processed

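Nasal transitional epithelium of 10 rats was measured on 1 Affymetrix rat array each, 5 with DMPT and 5 with vehicle, grouped by sample title. The authors deposited RMA values on the log2 scale, 1 per probe set, per the submitters' processing notes, with no software version in the sources used here. Precision is limited by the number of arrays. Of 31099 probe sets, 57 controls were left out of the tests. Names came from the platform annotation supplied: 20826 probe sets had 1 symbol, 436 several and 9780 none, and only those with 1 symbol were named. A gene was represented by its probe set with the highest mean (14217 genes). The test was limma 3.58.1 (lmFit, then eBayes, R 4.3.3; no filter), two-sided, with Benjamini-Hochberg adjustment over 31042 probe sets and a threshold of 0.05. The fit was also run on simulated data with independent noise for each probe set. That checks the code and does not measure error rates in these arrays. The authors' own comparison, made with ORIOGEN per the series' design text, was not run. The labels say that animals shared cages but not which, so arrays were treated as independent.

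The members and the lists were chosen with earlier results of these data known. Text names all members, the 3 genes of each pathway list with the smallest p, any list gene called past 2-fold, at most 2 genes of a marker list, and the 5 genes most like Nupr1 and Atf4. Ddit4, Slc3a2, Slc1a4, Chac1, Atf3, Stc2, Mthfd2, Slc38a2, Atf5, Nars1, Sars1, Eif2ak1, Eif2ak2, Eif2ak3, Shmt1, Manf, Hspa5, Xbp1, Aurkb, Krt5, Krt7 and Krt8 were named after their values were seen. Alternatives were a filter on dim probe sets, array weights, another eBayes setting, the RNA quality ratio, 2 normalizations, the mean of a gene's probe sets, the replicate number as a block and the omission of each array, 18 in all.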

Additional observations from a re-analysis of the deposited data

Results flagged for a closer look

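Trib3 on probe set 1370694_at had a value of 6.45 in DMPT replicate 4, against 7.07 to 7.27 in the other 4 DMPT arrays. The gap to the nearest array was 0.764 of the group's whole range, above Dixon's 95% limit of 0.71 for 5 samples. The same array had 7.01 on 1370695_s_at, the lowest of its group, and 7.27 on 1386321_s_at, the second highest. Of 26 groups of member values examined, this was the 1 past the limit, and chance puts about 1 in 20 groups there.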

How the results depend on the processing

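The 3 called members kept their direction and their call under all 18 alternatives, except Asns with the 3′ to 5′ RNA ratio as a covariate (-0.54, adjusted p = 0.0731). Members called higher, 1 in all, were 3 with array weights, 3 with arrays centred on their medians, 3 with the mean of all probe sets of a gene, 2 with trend and robust eBayes, 2 with quantile normalization and 2 with the replicate block, the genes gained being Psat1, Shmt2 or both. Leaving out 1 array gave 1 to 2 higher and 2 lower each time. With the RNA ratio, 1 member was lower, 456 genes were lower against 962, 0 of the eIF2 genes were lower, 1 folate gene and 5 genes of the ATF6 and XBP1 branch were higher, 0 of that branch were lower, and Atf4 turned to 0.0076. The eIF2 list had 0 lower with centred arrays and 0 with the replicate block. The synthetases had 5 higher with array weights, 1 with quantile normalization and 1 with the replicate block. The ATF6 and XBP1 branch had 5 higher without the dimmest quartile of probe sets, with array weights, with trend and robust eBayes, with centred arrays and with the mean of probe sets. With that mean, 1 neighbouring enzyme was higher and Kars1 turned to -0.28. Leaving out 1 array gave 542 to 963 genes lower (542, 608 and 622 without DMPT replicates 3, 4 and 5), 0 to 1 eIF2 genes lower, 0 to 1 other ATF4 targets lower, 1 to 5 synthetases higher, 2 to 5 genes of the ATF6 and XBP1 branch higher and 0 to 1 lower, and 0 to 1 relatives lower. Atf5 was the target and the relative gained without vehicle replicate 2. The cause of these changes was not tested. No consistent pairing of the arrays by replicate number was seen, though so few arrays cannot exclude an effect shared by some numbers. Deviations of same-numbered arrays had r from -0.067 to 0.234, 2 of 5 numbers correlated best with themselves, and the replicate block gave 923 genes higher and 987 lower. Mthfd1l is among the dimmest quartile and had no value without it.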
